A study of Arabidopsis thaliana with 12 samples.

Results

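The 4 ferritin genes FER1 to FER4, which store iron, and 6 regulators of the response to iron deficiency were followed across 12 RNA-seq libraries of Arabidopsis thaliana. The regulators were the group Ib bHLH genes bHLH38, bHLH39, bHLH100 and bHLH101, with PYE and BTS. The members were taken by their gene identifiers, and all 10 were found among the 27655 genes of the deposited tables. After 1 h of light, FER1 was lower and PYE, BTS, bHLH38, bHLH39 and bHLH100 were higher than in the dark in both lines studied. Apart from FER2, each gene had a light response that differed between the lines, as it did for 29.6% of all genes tested. The group Ib genes entered that test only through their level in light, and the PYE difference depended on the processing.

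The lines were flu1-1 ex1 and flu1-5 ex1. Both carried a flu allele and the ex1 mutation. FLU is a chloroplast protein that holds back chlorophyll synthesis in darkness, and EXECUTER1, the product of EX1, is a chloroplast protein that takes part in signalling from singlet oxygen. Without FLU a chlorophyll precursor accumulates in the dark and produces singlet oxygen once light returns. Seeds were stratified for 2 days at 4 °C, and seedlings grew for 6 days at 22 °C in continuous light. Each line was sampled after 4 h of dark and after 4 h of dark followed by 1 h of light, with 3 libraries in each of the 4 groups and about 100 seedlings per library per the file headers. Every group carried ex1, no group had an intact FLU and EX1, and none stayed dark for the further hour, so that singlet oxygen, light itself and the passing of 1 h cannot be told apart. The genotype label reads flu1-1 for every library, and the line of each was taken from its library description. FLU transcript was 190.3 ± 6.33 TPM in flu1-1 ex1 and 14.2 ± 1.21 TPM in flu1-5 ex1 after dark (SD, n = 3 each).

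Plants store surplus iron in ferritin, a hollow protein shell that sits mainly in plastids and keeps iron from reacting with oxygen to form damaging radicals. When iron is short, transcription factors of the bHLH family switch on uptake and redistribution: group IVc factors such as ILR3 act upstream, group Ib factors act with FIT on uptake genes in the root, and PYE, working with ILR3, represses storage and some transport genes. BTS is a ubiquitin ligase with iron-binding hemerythrin domains that marks group IVc factors for degradation, and small peptides called IRON MAN hold BTS back.

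Levels are given as TPM, a unit that corrects for transcript length and library total, for the 1 transcript per gene that the tables list. Log2 changes are on the log2(TPM + 1) scale, with their standard error (SE), and were tested with limma over all genes that averaged at least 1 TPM, at a Benjamini-Hochberg adjusted p under 0.05. TPM totals ran from 929954 to 935223 per library, and the read depth is unknown. Nothing in the labels says that libraries came from separate plantings, so p-values measure the spread between these libraries. Within groups, libraries correlated at 0.9935 to 0.9947 (Pearson's r across genes, log2 scale), and none stood apart. The 4 leaf markers summed to 16710 to 19710 TPM, most of it RBCS1A (15680.7 to 17807.2 TPM in group means). All 4 were higher in flu1-5 ex1 than in flu1-1 ex1 in the dark, by 0.14 to 0.21 on the log2 scale, and 2 of them were after quantile normalization. With light the guard cell genes FAMA and MYB60 rose in both lines (0.38 and 0.45 in flu1-1 ex1, 0.43 and 0.34 in flu1-5 ex1) and CA1 fell (-0.40 and -0.19). RBCS1A was called lower in flu1-5 ex1 only, from 17807.2 to 16048.9 TPM in group means. After quantile normalization no leaf marker was called lower with light. The 5 root hair markers EXPA7, EXPA18, COBL9, PRP3 and RHS2 summed to 1.07 to 3.18 TPM, with no member at 1 TPM or more on average in any group, so these root cells left little trace in libraries labelled as seedlings. Among 6 root endodermis markers, the sum was 3.28 to 4.36 TPM after dark and 1.07 to 1.89 TPM after light, and CASP2 fell in both lines (log2 change -0.97 and -1.16, adjusted p 1.35e-04 and 5.68e-05). The 4 seed storage markers summed to 2.69 to 12.02 TPM, and CRA1 fell in flu1-1 ex1, from 8.58 to 2.83 TPM in group means, and was at 5.57 and 6.02 TPM in flu1-5 ex1. CRC, the other seed storage marker tested, fell in both lines (-0.91 and -0.68, adjusted p 7.73e-04 and 0.00516). The part of these cell types in the results below was not tested, and in whole seedlings fewer cells of a type and less RNA per cell cannot be told apart.

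Most of the genes tested were called between dark and light in both lines. In flu1-1 ex1, 72.6% of the genes tested were called and 9 of the 10 genes were called, 6 higher against a background of 44.0% and 3 lower against 28.6%. In flu1-5 ex1, 67.8% of the genes tested were called and 7 of the 10 genes were, 6 higher against 38.4% and 1 lower against 29.3%. A call alone therefore says little here, and the size of the changes named is set beside the share of all genes that changed at least as much in the same direction. The 4 group Ib genes averaged under 1 TPM in the dark and entered the test only through their level in light, so the counts above carry no weight for them. Without a filter on low values 10 genes were called in flu1-1 ex1 and 7 in flu1-5 ex1, beside 57.8% and 53.7% of all genes in those fits. Quantile normalization lowered the median change of all genes by 0.14 in flu1-1 ex1 and by 0.12 in flu1-5 ex1, and changed the split of higher to lower calls from 7942 and 5155 to 6386 and 6751 in flu1-1 ex1 and from 6973 and 5324 to 5649 and 7016 in flu1-5 ex1.

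**Figure D1:**
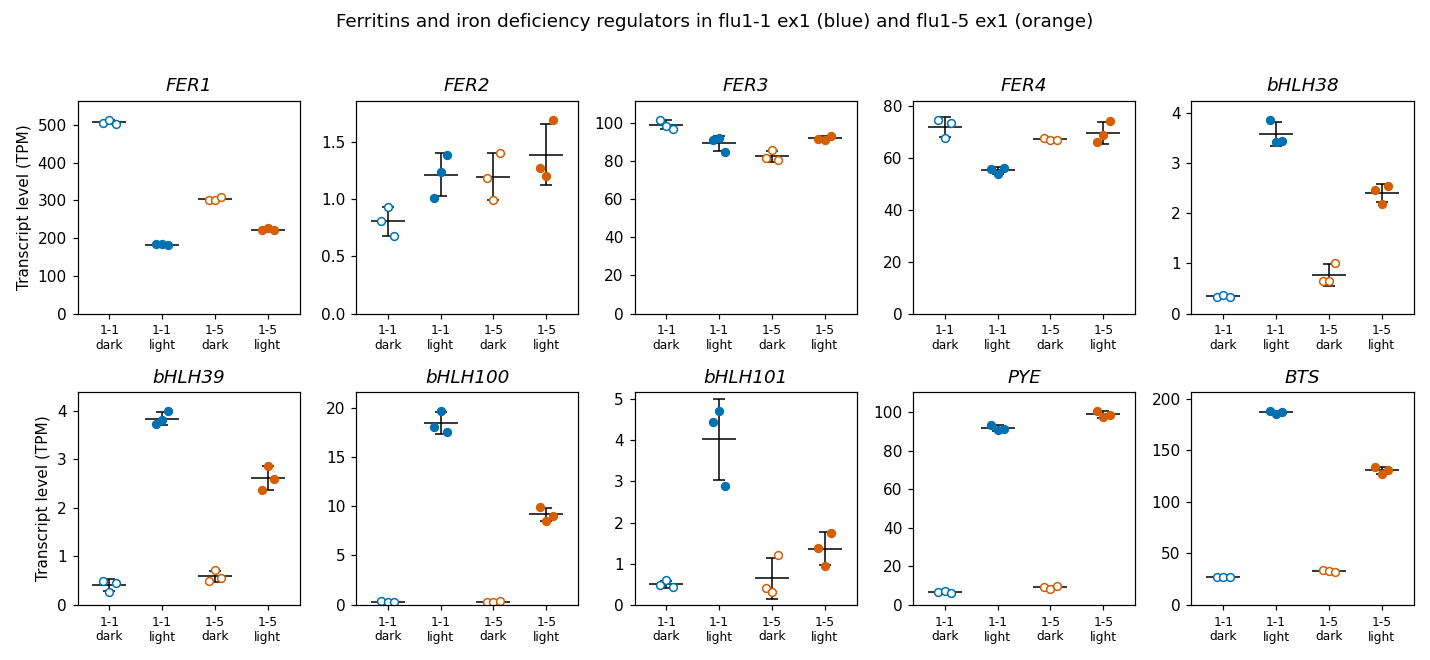
Transcript level (TPM, linear axes from 0) of the 10 genes in each library, open circles after 4 h of dark and filled circles after a further 1 h of light. Horizontal bars are group means and error bars are SD (n = 3); FER1 falls from 507.4 to 183.1 TPM for flu1-1 ex1 and from 303.5 to 222.8 TPM for flu1-5 ex1.

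The DNA upstream of the genes is shown for those that hold a G-box, the bHLH-binding hexamer CACGTG, because members of the bHLH family make up 5 of the 10 genes and all regulators but BTS. The 250 bases before the annotated gene start were read, for 9 of the 10 genes, from the RefSeq genome TAIR10.1. The submitters' processing notes name TAIR10, and the deposited tables hold no positions. The hexamer, which is its own reverse complement, was found in 4 of these 9 windows (FER3, bHLH38, bHLH100 and BTS), against 1780 of 27443 protein-coding genes, which is 6.49%. BTS held 3 copies, and the windows of FER1, FER2, bHLH39, bHLH101 and PYE held none. All 250 bases of the FER2 window lie in annotated exons of other genes. The windows are printed from 5′ to 3′ on the strand of the gene, with the G-box in capitals. They lie at chr3:6273716-6273965 (plus strand) for BTS, chr2:17199455-17199704 (minus) for bHLH100, chr3:21085246-21085495 (minus) for bHLH38 and chr3:20816036-20816285 (minus) for FER3. The window of bHLH39, at chr3:21087711-21087960 (minus), is added because bHLH39 is the tandem neighbour of bHLH38, moved in the same direction and has no G-box there.
BTS: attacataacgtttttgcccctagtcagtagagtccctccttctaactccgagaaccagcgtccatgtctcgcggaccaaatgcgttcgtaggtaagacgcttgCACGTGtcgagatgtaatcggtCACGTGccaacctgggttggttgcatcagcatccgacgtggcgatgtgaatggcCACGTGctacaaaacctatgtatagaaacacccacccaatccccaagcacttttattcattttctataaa
bHLH100: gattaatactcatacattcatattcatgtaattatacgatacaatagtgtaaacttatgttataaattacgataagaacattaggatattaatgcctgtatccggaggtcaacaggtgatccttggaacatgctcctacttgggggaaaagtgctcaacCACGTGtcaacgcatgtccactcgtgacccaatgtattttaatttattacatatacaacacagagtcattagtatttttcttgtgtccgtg
bHLH38: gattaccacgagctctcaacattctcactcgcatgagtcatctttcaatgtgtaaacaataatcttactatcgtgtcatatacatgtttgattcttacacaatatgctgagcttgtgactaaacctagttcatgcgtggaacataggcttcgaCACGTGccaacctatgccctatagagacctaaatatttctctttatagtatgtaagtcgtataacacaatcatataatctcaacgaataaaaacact
bHLH39: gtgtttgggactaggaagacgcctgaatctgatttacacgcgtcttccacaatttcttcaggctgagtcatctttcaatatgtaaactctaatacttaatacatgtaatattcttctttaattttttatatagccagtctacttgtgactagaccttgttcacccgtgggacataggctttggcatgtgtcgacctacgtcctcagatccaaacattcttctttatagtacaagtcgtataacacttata
FER3: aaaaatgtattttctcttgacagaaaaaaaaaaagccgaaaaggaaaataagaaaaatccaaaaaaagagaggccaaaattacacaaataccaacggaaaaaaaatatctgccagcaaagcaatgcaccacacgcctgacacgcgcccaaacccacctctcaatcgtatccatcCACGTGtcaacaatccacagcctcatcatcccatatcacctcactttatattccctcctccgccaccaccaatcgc

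The G-box began 76 bases before the start of FER3. In the group Ib genes it began 97 bases before bHLH38 and 91 bases before bHLH100. In flu1-1 ex1 FER3 fell with light and the other 3 genes with the hexamer rose. In flu1-5 ex1 all 4 rose, the rise of FER3 not being called after quantile normalization. Of the genes without the hexamer in this window, PYE (3.59 and 3.31) and bHLH39 also rose in both lines and FER1 fell in both. bHLH101 rose in flu1-1 ex1 and was not called in flu1-5 ex1, and FER2 was not called in either. With the window set instead to the 500 bases before the coding start, which takes in the 5′ UTR, 6 of the same 9 genes held the hexamer (FER1 and FER2 in addition), against 9.34% of genes. A match describes letters in a window and shows no binding.

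**Figure D2:**
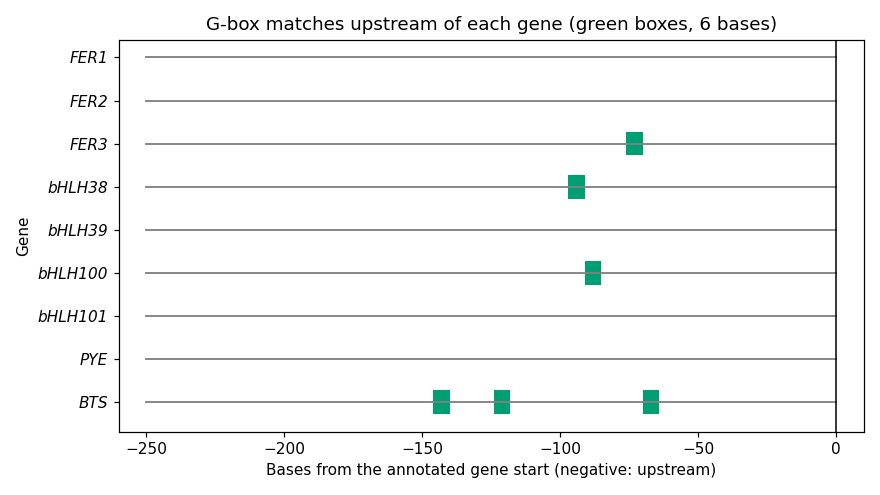
Positions of the hexamer (green boxes, to scale) in the 250 bases upstream of the annotated start of 9 of the genes; the x axis is the distance from the start in bases. BTS holds 3 copies, starting 146, 124 and 70 bases upstream, and 3 further genes hold 1 each.

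FER1 (AT5G01600, chr5:227953-230051), the main ferritin of leaves and known to be induced by iron, had the highest level of the 10 genes in the dark. In flu1-1 ex1 its levels were 505.4, 513.7 and 503 TPM after dark and 184.4, 184 and 180.9 TPM after light. In flu1-5 ex1 they were 302, 300.2 and 308.2 TPM after dark and 220.4, 225.8 and 222.3 TPM after light. Every dark library was above every light library in both lines, and the 4 groups did not overlap. The log2 change with light was -1.47 (SE 0.0238, limma adjusted p 2.27e-10) in flu1-1 ex1 and -0.44 (SE 0.0268, adjusted p 8.48e-07) in flu1-5 ex1. A fall at least as large was seen in 3.3% of the genes tested in flu1-1 ex1 and in 16.5% in flu1-5 ex1. FER1 started lower in flu1-5 ex1 and ended higher: the line difference was -0.74 in the dark (adjusted p 3.11e-07) and 0.28 in light (adjusted p 4.73e-05), on the log2 scale, flu1-5 ex1 minus flu1-1 ex1. The difference of the light responses was 1.02 (SE 0.0322, adjusted p 2.87e-10), and 2.05% of genes had one as high.

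FER1 carries the iron-dependent regulatory sequence, a promoter element known to hold FER1 down when iron is low. Its 14-base consensus, with any base allowed where the consensus leaves one free, was searched on both strands in the 500 bases before each coding start. FER1 was the 1 gene of 27443 with a match. The element was already known from FER1, so a match there was fixed in advance and is no result of these data. The element lies at chr5:229771-229784 on the minus strand (TAIR10.1), its first base 190 bases before the coding start, within the annotated 5′ UTR. It is printed in capitals within the stretch chr5:229763-229792, with the flanks in lower case.
FER1: ggatgtagCACGAGGCCGCCACacgcccct

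FER3 (AT3G56090) and FER4 (AT2G40300) are the other ferritins known from vegetative tissue, and FER4 is also found in mitochondria. FER3 was at 101.4, 98.43 and 96.81 TPM in dark and 90.67, 91.74 and 84.76 TPM in the light in flu1-1 ex1, a log2 change of -0.15 (SE 0.0386, limma adjusted p 0.00709). In flu1-5 ex1 it was at 81.29, 85.53 and 80.15 TPM in dark and 91.23, 90.99 and 93.06 TPM in light, a change of 0.16 (SE 0.0355, adjusted p 0.00411) that was not called after quantile normalization (0.07, adjusted p 0.133). FER3 thus moved in opposite directions in the lines, with no overlap of dark and light in either, and the difference of the responses was 0.31 (SE 0.0519, adjusted p 6.84e-04). Changes of that size were common: 31.7% of the genes tested fell as far in flu1-1 ex1, and 42.2% rose as far in flu1-5 ex1. FER4 fell in flu1-1 ex1, from 74.65, 67.68 and 73.58 TPM to 55.87, 53.78 and 55.94 TPM (log2 change -0.38, SE 0.044, adjusted p 6.2e-05), and 20.7% of genes were as low. In flu1-5 ex1 FER4 stood at 67.65, 66.88 and 66.95 TPM in dark and 65.95, 68.77 and 74.14 TPM in light, which overlap (0.05, SE 0.0454, adjusted p 0.359). The FER4 responses differed by 0.43 (SE 0.0649, adjusted p 2.99e-04). FER4 overlaps a neighbour on the same strand, AT2G40290 (72.6 to 81.8 TPM in group means), by 118 bases, and 7.36% of the 31-base words of its transcript also occur in other genes, mostly in that one.

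FER2 (AT3G11050), the ferritin of seeds, was scarcely present, at 0.676 to 1.7 TPM over the 12 libraries. It was not called in any comparison: the log2 change was 0.29 in flu1-1 ex1 (SE 0.132, limma adjusted p 0.0732) and 0.12 in flu1-5 ex1 (SE 0.134, adjusted p 0.448). In flu1-1 ex1 the light libraries (1.01 to 1.39 TPM) lay above the dark ones (0.676 to 0.928 TPM), and the call was made without a filter on low values (adjusted p 0.0445). The 4 ferritin transcripts together summed to 679 ± 4.35 TPM in dark and 328.6 ± 4.85 TPM in the light in flu1-1 ex1 (mean ± SD of 3 libraries). For flu1-5 ex1 they summed to 454.2 ± 2.36 TPM in dark and 385.6 ± 6.28 TPM in light. FER1 made up 74.7 ± 0.699% of the ferritin sum in the dark in flu1-1 ex1 and 66.8 ± 0.654% in flu1-5 ex1, and 55.7 ± 0.247% and 57.8 ± 0.841% in light.

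**Figure D3:**
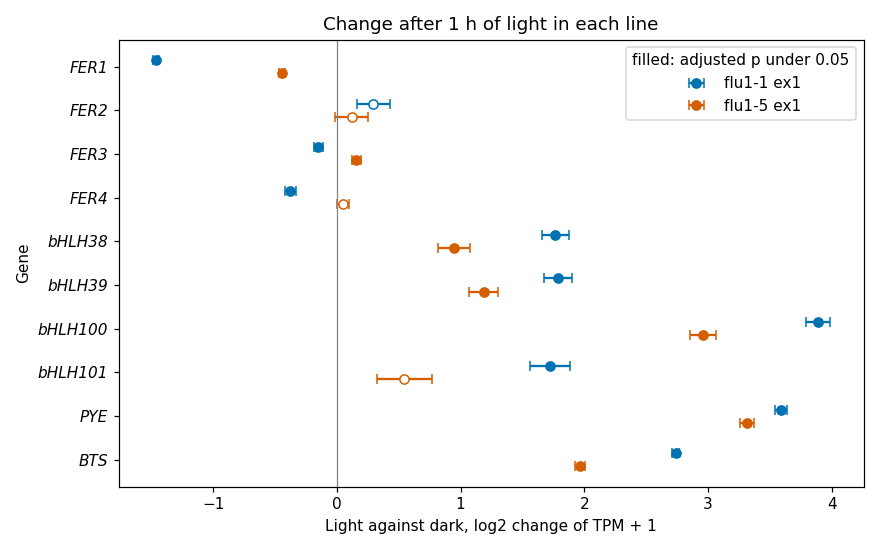
Log2 change of TPM + 1 from dark to light for the 10 genes in flu1-1 ex1 (blue) and flu1-5 ex1 (orange), with SE from limma; filled points have an adjusted p under 0.05. FER1 lies at -1.47 and -0.44, and bHLH100, PYE and BTS lie furthest to the right, at 3.89, 3.59 and 2.74 in flu1-1 ex1.

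The group Ib factors bHLH38, bHLH39, bHLH100 and bHLH101 are transcription factors that are known to be induced by iron deficiency in roots and leaves. Of the 4, bHLH100 (AT2G41240, chr2:17198037-17199454) had the highest level in light. It was at 0.403, 0.287 and 0.243 TPM in dark and 18.07, 19.63 and 17.49 TPM in the light in flu1-1 ex1. In flu1-5 ex1 it was at 0.235, 0.29 and 0.407 TPM in dark and 9.89, 8.54 and 9.05 TPM in light. The dark levels overlapped between lines and the light levels did not, with flu1-5 ex1 lower. The log2 change was 3.89 (SE 0.0941, limma adjusted p 2.29e-09) in flu1-1 ex1 and 2.95 (SE 0.105, adjusted p 2.76e-08) in flu1-5 ex1, a size reached by 0.366% and 0.964% of genes. The responses differed by -0.93 (SE 0.131, adjusted p 1.53e-04). For genes this low in the dark the log2(TPM + 1) scale understates the change: with a pseudocount of 0.1 in place of 1 the changes in flu1-1 ex1 and flu1-5 ex1 were 5.51 and 4.51 for bHLH100, 3.05 and 1.55 for bHLH38, 2.99 and 1.99 for bHLH39, and 2.76 and 1.13 for bHLH101. The calls were the same as with 1 TPM, bHLH101 in flu1-5 ex1 staying uncalled (adjusted p 0.0548).

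The neighbours bHLH38 (AT3G56970, chr3:21084035-21085245) and bHLH39 (AT3G56980, chr3:21086390-21087710) lie in tandem on the minus strand. In flu1-1 ex1, bHLH38 was at 0.32, 0.376 and 0.332 TPM in dark and 3.85, 3.42 and 3.44 TPM in light. In flu1-5 ex1 it was at 0.641, 0.65 and 1.01 TPM in dark and 2.46, 2.19 and 2.53 TPM in light, so that flu1-5 ex1 was above flu1-1 ex1 in the dark and below it in light without overlap. Its light change was 1.77 (SE 0.111, limma adjusted p 9.83e-07) and 0.95 (SE 0.127, adjusted p 1.71e-04), with a difference of -0.82 (SE 0.153, adjusted p 0.00132). A rise as large was seen in 3.61% of genes in flu1-1 ex1 and in 11% in flu1-5 ex1. For bHLH39, flu1-1 ex1 had 0.486, 0.27 and 0.457 TPM in dark and 3.72, 3.8 and 3.99 TPM in light, and flu1-5 ex1 had 0.496, 0.709 and 0.545 TPM in dark and 2.36, 2.86 and 2.59 TPM in light. Dark and light were apart in both lines, and the lines were apart in light. Its change was 1.79 (SE 0.116, adjusted p 1.24e-06) and 1.19 (SE 0.118, adjusted p 2.41e-05), with a difference of -0.60 (SE 0.149, adjusted p 0.00858), and 3.5% and 7.79% of genes rose as far. Of the 31-base words in the bHLH38 transcript 34.6% also occur in other genes, nearly all of them in AT3G56960, which overlaps it by 386 bases on the opposite strand and was at 1.33 to 2.05 TPM in group means. The level of bHLH38 is uncertain to that extent, while bHLH39 shares 0.844% of its words.

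The last group Ib gene, bHLH101 (AT5G04150), was the least even among replicates. It was at 0.469, 0.602 and 0.427 TPM in dark and 4.45, 4.71 and 2.9 TPM in the light in flu1-1 ex1, a log2 change of 1.73 (SE 0.161, limma adjusted p 1.4e-05) that 3.84% of genes reached. In flu1-5 ex1 it was at 0.411, 0.31 and 1.22 TPM in dark and 1.38, 0.951 and 1.75 TPM in light, which overlap, and the change of 0.55 (SE 0.222) was not called (adjusted p 0.0556). It was called there without light replicate 2 (0.68, adjusted p 0.0406). The responses differed by -1.18 (SE 0.291, adjusted p 0.00828). A neighbour on the opposite strand, AT5G04140, at 335.3 to 428.7 TPM in group means, overlaps bHLH101 by 79 bases. Of the 31-base words in the bHLH101 transcript, 4.9% also occur in that neighbour. How far its reads entered the low level of bHLH101 was not tested.

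PYE (AT3G47640, chr3:17567126-17569394), a bHLH repressor known from the root pericycle under iron deficiency, rose strongly in both lines. It was at 6.81, 7.02 and 6.29 TPM in dark and 93.2, 90.4 and 90.9 TPM in the light in flu1-1 ex1, and at 9.13, 8.3 and 9.76 TPM in dark and 100.4, 97.2 and 98.6 TPM in the light in flu1-5 ex1. The groups did not overlap, and the light levels of both lines were close. The log2 change was 3.59 (SE 0.0487, limma adjusted p 9.64e-11) and 3.31 (SE 0.0574, adjusted p 3.85e-10), a size reached by 0.493% and 0.744% of genes. PYE was higher in flu1-5 ex1 in the dark by 0.38 (adjusted p 0.0111) and in light by 0.11 (adjusted p 0.026), and the latter call was lost without flu1-1 ex1 light replicate 2 or 3 or flu1-5 ex1 light replicate 1 or 3 (adjusted p 0.0642 to 0.086). The responses differed by -0.28 (SE 0.0757, adjusted p 0.015), which was not called after quantile normalization (-0.18, adjusted p 0.0947).

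BTS (AT3G18290, chr3:6273966-6280562) rose as well, and more in flu1-1 ex1. It was at 26.7, 27.3 and 27.3 TPM in dark and 187.7, 184.6 and 187.1 TPM in the light in flu1-1 ex1. In flu1-5 ex1 it was at 33.5, 32.8 and 31.5 TPM in dark and 133.8, 126.7 and 130.4 TPM in light. The 4 groups did not overlap, and the order of the lines turned between dark and light. The log2 change was 2.74 (SE 0.0298, limma adjusted p 3.74e-11) and 1.97 (SE 0.0387, adjusted p 7.35e-10), a size reached by 1.14% and 2.9% of genes. The line difference of BTS was 0.26 in the dark (adjusted p 0.00299) and -0.51 in light (adjusted p 2.02e-06). The responses differed by -0.77 (SE 0.0458, adjusted p 5.91e-08), and 1.91% of genes had one as low.

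The lines were then compared within dark and within light. In the dark, 18.5% of the genes tested were called between lines, and 4 of the 6 genes tested were, FER1 and FER3 lower (background 5.65%) and PYE and BTS higher (background 12.9%) in flu1-5 ex1. Quantile normalization changed the split of all higher to lower calls in the dark from 2246 and 987 to 1594 and 1435, and the same 4 genes were called. The group Ib genes were not tested there because their mean was under 1 TPM. With no filter bHLH38 was called (0.39, limma adjusted p 0.0388) and bHLH39, bHLH100 and bHLH101 were not (adjusted p 0.283, 0.9999 and 0.808). In light, 37.1% of the genes were called and 8 of the 10 genes were, with FER1, FER4 and PYE higher (background 17.2%) and the 4 group Ib genes and BTS lower (background 20.0%) in flu1-5 ex1. The group Ib differences in light were -0.43 for bHLH38 (adjusted p 0.0096), -0.43 for bHLH39 (adjusted p 0.00904), -0.93 for bHLH100 (adjusted p 1.07e-05) and -1.08 for bHLH101 (adjusted p 0.0014). For FER4 the difference in light was 0.33 (adjusted p 6e-04), and for FER3 it was 0.04 (adjusted p 0.417).

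The light response itself differed between the lines for 29.6% of genes and for 9 of the 10 genes. It was higher in flu1-5 ex1 for the 3 ferritins FER1, FER3 and FER4, against a background of 11.3%. It was lower for the group Ib genes, PYE and BTS, against 18.3%. The group Ib genes again entered the test only through light, so the comparison of counts with the background rests on the 6 other genes, 3 of them higher and 2 lower. The rises of bHLH38, bHLH39, bHLH100, PYE and BTS and the fall of FER1 were smaller in flu1-5 ex1. For bHLH101 no rise was called there. The comparisons share libraries and are not independent of each other.

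**Figure D4:**
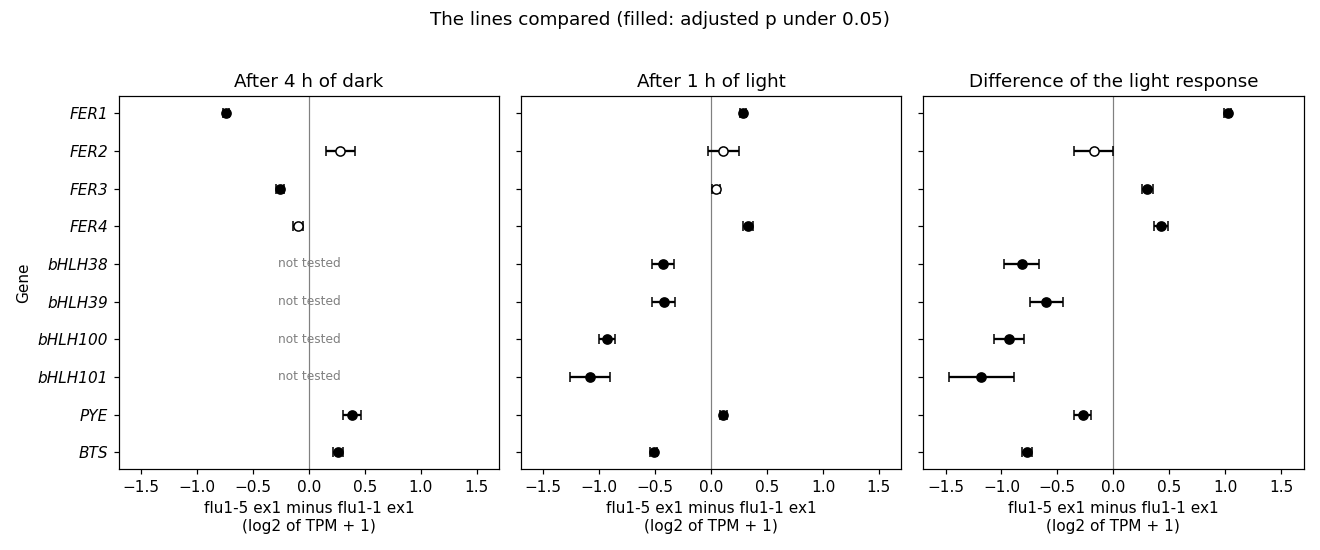
Log2 difference between the lines (flu1-5 ex1 minus flu1-1 ex1, TPM + 1) in the dark, in light, and for the light response, with SE from limma; filled points have an adjusted p under 0.05, and the group Ib genes were not tested in the dark. FER1 goes from -0.74 in the dark to 0.28 in light, and BTS from 0.26 to -0.51.

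Among 14 other regulators of iron supply, 9 were tested and 7 called in each line, 6 higher and 1 lower, beside 72.6% and 67.8% of all genes. After quantile normalization 5 were higher in flu1-1 ex1 and 4 in flu1-5 ex1, with 1 lower in each. The IRON MAN genes IMA1, IMA2 and IMA3, which encode the peptides that hold BTS back, rose in both lines. IMA3 had the largest change of the list, from 2.04, 1.73 and 1.25 TPM to 59.9, 56.2 and 54.1 TPM in flu1-1 ex1 (4.44, SE 0.106, limma adjusted p 2.18e-09) and from 3.42, 3.29 and 3.06 TPM to 44.8, 45.4 and 41.9 TPM in flu1-5 ex1 (3.40, SE 0.0625, adjusted p 4.98e-10). IMA1 changed by 3.26 and 2.53 and IMA2 by 2.85 and 2.03. The share of genes that rose as far was 0.188% and 0.705% for IMA3, 0.693% and 1.53% for IMA1, and 1.02% and 2.63% for IMA2. The rises were smaller in flu1-5 ex1, with differences of -1.04 for IMA3, -0.73 for IMA1 and -0.81 for IMA2 (adjusted p 5.62e-05, 0.00123 and 0.00239). bHLH34, a group IVc factor named here after its values were seen, rose from 4.16 ± 0.263 to 26.4 ± 0.74 TPM for flu1-1 ex1 and from 4.65 ± 0.503 to 25.9 ± 0.882 TPM for flu1-5 ex1 (2.41 and 2.26, reached by 1.56% and 2.06% of genes). ILR3, of the same group, was at 102.2 ± 3.22 and 107.2 ± 5.34 TPM in dark and light in flu1-1 ex1 and at 105 ± 0.579 and 106.4 ± 2.98 TPM in flu1-5 ex1, and was not called (adjusted p 0.177 and 0.618). bHLH121, a partner of the group IVc factors, fell by 2.09 in flu1-1 ex1 and fell by 2.40 in flu1-5 ex1, as far as 1.36% and 0.645% of genes. The tables list different transcripts of bHLH121 for the lines, so that it was compared within each line only.

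FIT and the genes it is known to act on in roots were low, and a listed 0 may be a failed estimate. FRO2, the root ferric reductase, was at 0.184 ± 0.0324 TPM in dark and 0.965 ± 0.221 TPM in the light in flu1-1 ex1 and at 0.132 ± 0.0579 and 0.722 ± 0.0914 TPM in flu1-5 ex1, with no overlap of dark and light in either line. It did not reach the filter, and without one its rise was called in both lines (0.72 and 0.61, limma adjusted p 4.37e-04 and 3.09e-04). FIT was at 0 to 1.43 TPM over the 12 libraries, with group means of 0.0775 and 0.627 TPM in flu1-1 ex1 and 0.23 and 0.92 TPM in flu1-5 ex1 in dark and light. IRT1, the root iron importer, was at 0 to 0.392 TPM. Of 10 genes for uptake from soil 3 were tested. The proton pump gene AHA2 was the 1 called with the filter, in flu1-1 ex1, where 72.6% of all genes were called. It rose there from 124.7 ± 3.83 to 158.6 ± 6 TPM (0.34, SE 0.0372, limma adjusted p 3.66e-05), and 35.5% of genes rose as far. In flu1-5 ex1 AHA2 was at 137.5 ± 6.22 and 144 ± 2.18 TPM (0.07, adjusted p 0.156). Its responses differed by -0.28 (adjusted p 0.00195).

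Of 24 genes for iron transport, chelation and storage other than the ferritins, 19 were tested and 16 called in each line, 12 higher and 4 lower. Of all genes tested, 44.0% were called higher and 28.6% lower in flu1-1 ex1, and 38.4% and 29.3% in flu1-5 ex1. After quantile normalization 12 of the 19 were higher and 5 lower in each line. The median change of those tested was 0.63 in flu1-1 ex1 and 0.72 in flu1-5 ex1, beside 0.12 and 0.05 for all genes. OPT3, a phloem transporter that moves iron out of leaves, rose from 46 ± 1.27 to 324.8 ± 2.85 TPM for flu1-1 ex1 and from 57.5 ± 0.457 to 266.5 ± 7.71 TPM for flu1-5 ex1 (2.79 and 2.19, reached by 1.08% and 2.21% of genes). The nicotianamine synthase genes NAS1 and NAS4, whose product carries iron within the plant, changed by 2.66 and 2.28 and by 2.48 and 1.92. ZIF1, which loads nicotianamine into the vacuole, changed by 2.38 and 1.81. For these 3 genes 1.25% to 1.61% of all genes rose as far in flu1-1 ex1 and 1.97% to 3.47% in flu1-5 ex1. NAS4, ZIF1 and FRO3 are among the known targets of repression by PYE. NAS4 and ZIF1 rose in both lines, as did PYE, and FRO3 did not. Whether PYE acted on them here was not tested. FRO3 rose by 0.51 in flu1-1 ex1 (limma adjusted p 7.97e-04). In flu1-5 ex1 it was not called (-0.80, SE 0.644, adjusted p 0.309), with light libraries at 14.17, 7.93 and 1.38 TPM. The responses of OPT3, NAS1, NAS4 and ZIF1 were smaller in flu1-5 ex1, with differences of -0.60, -0.38, -0.56 and -0.57 (limma adjusted p 2.56e-07, 0.00607, 5.93e-04 and 0.00172). Of the genes that fell, 3 are named after their values were seen. YSL3, a transporter of iron-nicotianamine complexes, fell from 29.4 ± 4.09 to 7.5 ± 1.53 TPM for flu1-1 ex1 and from 37.3 ± 2.06 to 11.7 ± 0.978 TPM for flu1-5 ex1 (-1.84 and -1.60). FRO6, a ferric reductase gene of leaves, fell from 44.1 ± 0.304 to 16.9 ± 0.224 TPM for flu1-1 ex1 and from 44.9 ± 1.98 to 15.7 ± 0.103 TPM for flu1-5 ex1 (-1.33 and -1.46). The YSL3 and FRO6 responses were not called different between lines (adjusted p 0.344 and 0.11). VTL5, of the vacuolar iron transporter family, fell from 11.5 ± 0.739 to 4.54 ± 0.304 TPM for flu1-1 ex1 and from 7.69 ± 0.57 to 4.48 ± 0.45 TPM for flu1-5 ex1 (-1.17 and -0.67, difference 0.50, adjusted p 0.00653). In flu1-1 ex1 falls as large were seen in 1.86% of genes for YSL3, 3.99% for FRO6 and 5.07% for VTL5.

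Genes that assemble iron-sulphur clusters in plastids, which use iron rather than store it, had no called change as large as 1 on the log2 scale. All 10 were tested. In flu1-1 ex1 6 were higher and 1 lower, beside 44.0% and 28.6% of all genes. In flu1-5 ex1 4 were higher and 0 lower, beside 38.4% and 29.3%. After quantile normalization the split of the 10 became 3 higher and 3 lower in flu1-1 ex1 and 3 higher and 2 lower in flu1-5 ex1. The largest were SUFD (0.47 and 0.29), SUFB (0.27 and 0.31) and SUFA (0.27 and 0.22), the first 2 being parts of the plastid scaffold complex. Rises as large were seen in 28.6% to 39.7% of all genes in flu1-1 ex1 and in 32.4% to 37.5% in flu1-5 ex1. The SUFD responses differed by -0.18 (limma adjusted p 0.0228), a call that was lost without any 1 of 5 of the libraries (adjusted p 0.05002 to 0.0573). The list's median was 0.12 in flu1-1 ex1 and 0.04 in flu1-5 ex1, beside 0.12 and 0.05 for all genes.

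**Figure D5:**
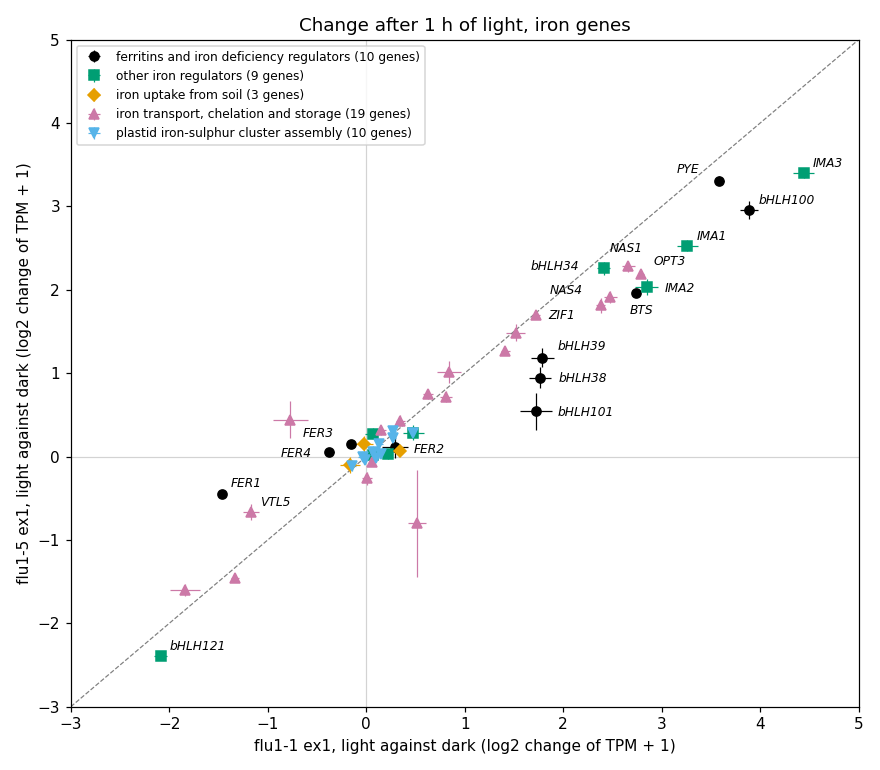
Log2 change of TPM + 1 from dark to light in flu1-1 ex1 (x axis) and flu1-5 ex1 (y axis) for the tested genes of each list, with SE from limma; the dashed line marks equal change. The IRON MAN genes, bHLH100, BTS and the group Ib genes lie below the line at the upper right, and FER1 and VTL5 lie above it at the lower left.

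Across the 12 libraries, which fall into 4 groups, the genes most like FER1 in pattern were EXPA8, AT3G62650, LBD41, PDS1 and AT1G18270 (Pearson's r 0.983 to 0.97). The range of each was at least 0.5 times that of FER1. LBD41, for example, had group means of 37.7, 3.27, 18.8 and 4.94 TPM in the order flu1-1 ex1 dark and light, flu1-5 ex1 dark and light. The genes most like BTS were CAD9, UGP1, ORG1, OLI2 and AT4G38100 (r 0.999), and CAD9 had group means of 63.3, 415.6, 73.2 and 290.3 TPM. Those most like bHLH38 were AT5G39990, AT4G04670, HSP60-2, AT4G30800 and AT2G19385 (r 0.994 to 0.991). Among the 10 genes, r was 0.995 between bHLH100 and BTS, 0.984 between PYE and BTS, 0.452 between FER1 and FER3, and -0.948 between FER1 and bHLH38. These correlations describe the pattern over groups that share their libraries and have no test.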

How the data were processed

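Per the labels, 12 libraries of total RNA were read on a DNBSEQ-T7. The authors deposited TPM values for 1 transcript per gene in 1 table per line, per the file headers. The submitters' processing notes name kallisto 0.46.2, sleuth 0.30.0 and the build TAIR10, without saying what each did. A switch between transcripts can therefore look like a change in level, and no depth or counting interval can be given. For 971 of 27655 genes the tables list different transcripts, and these were left out of comparisons across lines. The 10 genes have the same transcript in both.

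Values were tested as log2(TPM + 1) by limma (version 3.58.1, R 4.3.3), letting the prior variance follow the mean level and moderating it robustly through statmod 1.5.0. Genes with a mean under 1 TPM over the libraries fitted were not tested. P-values are two-sided and were adjusted by the Benjamini-Hochberg method over all genes tested. Each line's light response was fitted on its 6 libraries, the lines were compared within dark and within light, and the difference of the responses was an interaction over the 12 libraries. The procedure was tested on simulated data.

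The 10 genes and the further lists (14 regulators, 10 genes for uptake, 24 for transport, chelation and storage, 10 for plastid iron-sulphur clusters, and markers) were chosen with earlier results of these data known, and their counts are descriptions. Named beside the 10 were the 3 called genes of each list with the largest change in each line and the 3 with the largest difference, with FIT, ILR3, bHLH121, IMA1 to IMA3, IRT1, FRO2 and FLU whatever their values. The same rule named the 5 genes with the highest Pearson's r to FER1, bHLH38 and BTS. Of the gene identifiers, 27445 were found in the RefSeq annotation of TAIR10.1, which gave symbols, positions and upstream sequence. The upstream sequence of 1 of the 10 genes is not reported here. Shared 31-base words were counted between the listed transcript and the transcripts of other genes on either strand. Alternatives were quantile normalization, no filter or a minimum of 5 TPM, a pseudocount of 0.1 or 5, a block for the replicate number, fits without each library in turn, stricter calls (adjusted p under 0.01, or log2 change of at least 1), and all 12 libraries in 1 fit.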

Additional observations from a re-analysis of the deposited data

Results flagged for a closer look

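The genes below were picked out because their light response differed between the lines by limma's interaction test over the 12 libraries, at an adjusted p under 0.05. The cause was not tested. Values are log2 differences of the responses, flu1-5 ex1 minus flu1-1 ex1. Among ferritins they were 1.02 for FER1, 0.31 for FER3 and 0.43 for FER4. For the group Ib genes they were -0.82 for bHLH38, -0.60 for bHLH39, -0.93 for bHLH100 and -1.18 for bHLH101. PYE had -0.28 and BTS had -0.77. Of the other genes named, the IRON MAN genes had -0.73 (IMA1), -0.81 (IMA2) and -1.04 (IMA3), AHA2 had -0.28, OPT3 had -0.60, NAS1 had -0.38, NAS4 had -0.56, ZIF1 had -0.57, VTL5 had 0.50 and SUFD had -0.18. Adjusted p-values ran from 2.87e-10 (FER1) to 0.0228 (SUFD). Over all genes 29.6% were called, 11.3% with a positive and 18.3% with a negative difference. On the log2(TPM + 1) scale the difference of a gene near 0 TPM in the dark depends on the pseudocount: with 0.1 in place of 1 it was -1.51 for bHLH38, -0.9999 for bHLH39, -0.99 for bHLH100 and -1.64 for bHLH101, each still called (adjusted p 0.00134, 0.0246, 0.0115 and 0.0408).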

How the results depend on the processing

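Of 623 recomputed values of the 10 genes, 606 kept their direction and their side of the threshold, 9 were no longer called, 6 became called and 2 turned sign. The last were FER2 and FER4 in the light response of flu1-5 ex1, at -0.061 and -0.063 after quantile normalization, not called with or without it. A log2 change of at least 1 left 3295 of 18042 genes tested in flu1-1 ex1, with 6 of the 10 higher and 1 lower. In flu1-5 ex1 it left 2732 of 18145 genes and 4 of the 10. The group Ib genes counted there entered these tests only through light. Between lines it left 188 of 17471 genes and 0 of the 10 in the dark, and 668 of 17845 and 1 in light. For the difference of the responses it left 504 of 17830 genes and 2 of the 10. An adjusted p under 0.01 left 1643, 4380 and 3308 genes in the last 3 comparisons. A mean of at least 5 TPM takes FER2, bHLH38, bHLH39 and bHLH101 out of every test, and bHLH100 out of those within flu1-5 ex1 and within dark. Of FER1, FER3, FER4, PYE and BTS, which stayed in the test in flu1-5 ex1, 4 were called there. Between lines in light, where bHLH100 stayed in as well, 5 were called. The share of all genes called with this filter is not given, so these counts carry no weight. Calls of FER2, FER3, FER4, bHLH101 and PYE depended on a setting. FER3 in flu1-5 ex1 and the PYE difference are given above, and the PYE difference was also lost with a pseudocount of 5 (adjusted p 0.0539). FER2 in flu1-1 ex1 and bHLH101 in flu1-5 ex1 were called with all 12 libraries in 1 fit (adjusted p 0.0491 and 0.0326), where PYE between lines in light was not (0.134). FER4 was called between lines in the dark without flu1-1 ex1 dark replicate 2 (-0.14, adjusted p 0.0382). The replicate numbers pair nothing in the labels, and deviations of libraries with the same number correlated at -0.06 to 0.15. With the replicate block, 13129, 11956, 2676 and 6052 genes were called in the light comparisons of flu1-1 ex1 and flu1-5 ex1 and between lines in dark and light, bHLH101 was called in flu1-5 ex1 (adjusted p 0.0171) and PYE was not called between lines in light (0.0571). No other member's call changed with the block. The depth behind TPM is unknown, so no counting error can be set on the levels of the group Ib genes in the dark or of FER2.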
